A study of Mus musculus with 8 samples.

Results

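RNA-Seq counts of 9 mouse genes that mark the hormone-responsive and milk-producing lineage of the mammary gland were examined in PyMt mammary tumors treated topically with calcipotriol or EtOH. The genes were taken by their symbols, 9 of the 55414 gene identifiers counted, and comprise 3 hormone receptors (Esr1, Pgr and Prlr), 2 transcription factors (Gata3 and Elf5), 3 milk proteins (Csn2, Csn3 and Wap) and the milk fat globule protein Mfge8. Only Gata3, Mfge8 and Esr1 were counted in every tumor. Esr1 was lower in all 4 calcipotriol-treated tumors than in any EtOH-treated tumor. Its means were 10.9 ± 2.92 against 22.9 ± 7.93 CPM (counts scaled to library size, with SD, n = 4 per group). Esr1 did not pass the study's thresholds with edgeR, the main test here (adjusted p = 0.0753), or with limma-voom (adjusted p = 0.0958). It passed them with DESeq2 (adjusted p = 0.0105). Gata3 and Mfge8 overlapped between the groups. Csn2 and Wap were at 0 counts in all 8 tumors.

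The luminal cells of the mammary epithelium include cells that carry receptors for estrogen and progesterone and cells of the alveolar lineage, which make milk. Estrogen and progesterone act through nuclear receptors that bind DNA, whereas prolactin binds a receptor on the cell surface and activates the kinase JAK2 and the transcription factor STAT5, which switches on milk protein genes during pregnancy and lactation. GATA3 maintains luminal cells, ELF5 specifies alveolar cells, and the caseins and whey acidic protein are the products of the lactating cell. The polyoma middle T oncoprotein under the MMTV promoter drives tumors from this epithelium, and estrogen receptor is known to be lost as such tumors progress.

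The tumors were grown from the PyMt cell line, which came from 1 mammary tumor of an MMTV-PyMt transgenic C57BL/6 mouse and whose cells were implanted orthotopically in the inguinal mammary fat pad of WT C57BL/6 female mice, so the tumor cells of both groups share 1 origin. The 4 calcipotriol-treated mice received 20 nmol of this vitamin D analog on the skin over the tumor every 2 days, starting 2 days after implantation, and the 4 control mice received the EtOH solvent alone. Tumors were collected 24 hours after the last dose. Recipient mice were 6 to 8 weeks old, an age stated for the growth experiments and not separately for the sequenced tumors, and the methods describe implanted cells that carried a nonsense control guide without stating whether the sequenced tumors came from them. The replicate numbers of the labels are 1 to 4 with EtOH and 1, 5, 6 and 7 with calcipotriol, and each sample was treated as a separate tumor.

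Each library held 19685419 to 25084713 counts, at which 3 counts, used here as the limit of detection, equal 0.120 to 0.152 CPM in a tumor. EtOH 1 and 2 stood apart from EtOH 3 and 4, with Pearson's r of log2 CPM across genes of 0.959 within the first pair and 0.919 to 0.934 between EtOH 1 and EtOH 3 or 4 and between EtOH 2 and EtOH 3 or 4. The labels give no batch for this split. Results for the tested genes of the set are given without each pair where their direction, call or size depends on it. For other genes and lists they are given in part. The labels name an epithelial cell type for these samples. Of 7 pan-epithelial genes, the simple-epithelium keratins Krt8 (284 to 651 CPM) and Krt18 (259 to 664 CPM) were high in all tumors, whereas the epithelial adhesion gene Epcam was at 0 counts in EtOH 1 and 2 and between 26 and 536 counts in the other 6, and Cldn7, Esrp1 and Grhl2 did not pass the filter on low counts. Of the 4 pan-epithelial genes tested, 0 passed both thresholds of the comparison. In whole tumors, fewer cells of a type and less RNA per cell cannot be told apart.

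The regulatory sequence of the milk genes is shown first, because Csn2 and Wap had no counts and STAT5 is the factor through which prolactin acts on them, with Esr1 beside them as the gene whose groups did not overlap. RefSeq promoter windows on GRCm38.p6 were found for 8 of the 9 genes, and 3 of them are printed here up to the transcript start, 5′ to 3′ on the gene's strand, with matches to the STAT5 motif in capitals:
Csn2, chr5:87699426-87699675, reverse strand: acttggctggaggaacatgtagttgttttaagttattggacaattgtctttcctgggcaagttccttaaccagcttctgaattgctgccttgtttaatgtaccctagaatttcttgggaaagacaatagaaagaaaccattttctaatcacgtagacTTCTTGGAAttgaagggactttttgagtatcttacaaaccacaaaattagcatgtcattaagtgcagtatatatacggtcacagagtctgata
Wap, chr11:6638650-6638899, reverse strand: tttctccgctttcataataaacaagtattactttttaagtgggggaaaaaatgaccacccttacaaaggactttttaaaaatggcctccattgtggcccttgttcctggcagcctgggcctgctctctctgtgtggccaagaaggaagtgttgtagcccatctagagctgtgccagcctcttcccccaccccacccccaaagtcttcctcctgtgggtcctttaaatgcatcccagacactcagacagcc
Esr1, second window, chr10:4709908-4710157, forward strand: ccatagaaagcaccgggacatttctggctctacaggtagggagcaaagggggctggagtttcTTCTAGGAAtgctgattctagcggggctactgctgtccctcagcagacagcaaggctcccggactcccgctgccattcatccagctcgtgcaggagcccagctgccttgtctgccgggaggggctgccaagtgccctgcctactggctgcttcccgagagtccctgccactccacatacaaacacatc
The motif searched was TTCNNNGAA on both strands, a palindrome, and 8.30% of the 32851 RefSeq promoter windows hold it. Every window was searched at its full length, which runs 50 bases past the start, beyond the part printed here. The Csn2 window holds TTCTTGGAA beginning 93 bases before the start, and the Wap window holds no match. The second of 2 Esr1 windows holds TTCTAGGAA beginning 188 bases before the start, and the second of 3 Prlr windows holds the same letters 110 bases before the start. Neither the estrogen receptor motif GGTCANNNTGACC, held by 0.0700% of the windows, nor the vitamin D receptor motif GGTCANNNNGGTCA, held by 0.0457%, was found in any window of the 8 genes. A match describes the letters of the window and not binding in these tumors.

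Of the 9 genes, 5 passed edgeR's filter on low counts and were tested in a fit of all genes that passed it, and Pgr, Elf5, Csn2 and Wap did not. Across all 14458 genes tested, 2.02% passed both thresholds, a Benjamini-Hochberg adjusted p under 0.05 (edgeR quasi-likelihood test) and a log2 fold change of 1 or more in size, with 1.07% higher and 0.948% lower in calcipotriol-treated tumors. The adjusted p alone was passed by 2.74%. None of the 5 genes passed either the adjusted p or both thresholds with edgeR, and 1 of them, Esr1, had an unadjusted p under 0.05. DESeq2 passed 1 of the 5, again Esr1, against 4.45% of all genes, and gave no p for Csn3. Esr1 was its only gene of the set at an unadjusted p under 0.05. limma-voom passed 0 of the 5, against 1.9% of all genes, with 2 at an unadjusted p under 0.05, Esr1 and Csn3. The 2 groups did not overlap in 1 of the 5 genes, which was lower with calcipotriol, against 12.5% of all genes tested, of which 6.16% were lower and 6.32% higher with calcipotriol.

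Esr1 encodes estrogen receptor alpha, the nuclear receptor through which estrogen drives growth of the mammary ducts, and lies on chromosome 10 at chr10:4611593-5005614 on the forward strand (GRCm38). It had 630, 590, 370 and 390 counts in EtOH 1 to 4 and 244, 164, 251 and 336 counts in calcipotriol 1, 5, 6 and 7. On the CPM scale these were 30.6, 28.7, 15.0 and 17.2 with EtOH and 9.68, 7.48, 12.1 and 14.2 with calcipotriol. EtOH 1 and 2 were the high tumors, and the lowest EtOH tumor, at 15.0 CPM, was close to the highest calcipotriol tumor, at 14.2 CPM. The log2 fold change was -1.07 (SE 0.28, 95% confidence interval -1.70 to -0.45), with an edgeR p of 0.00327 and an adjusted p of 0.0753. A two-sided exact permutation test, with 70 possible arrangements, gave p = 0.0286, the smallest value that 4 against 4 tumors allow.

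The call for Esr1 depended on the method and on the tumors included. The adjusted p was 0.0105 with DESeq2, 0.0392 with edgeR without a filter on low counts and 0.0958 with limma-voom, at log2 fold changes from -1.07 to -1.02. With any 1 tumor left out, the log2 fold change stayed between -1.23 and -0.90, with adjusted p from 0.0668 to 0.182. Without EtOH 1 and 2 it was -0.56 (adjusted p = 0.283, edgeR), and without EtOH 3 and 4 it was -1.45 (adjusted p = 0.0157, edgeR). The sum of 8 endothelial markers had a like split, at 340 and 371 CPM in EtOH 1 and 2, 169 and 172 CPM in EtOH 3 and 4, and 67.5 to 130 CPM with calcipotriol. Of these 8 endothelial genes, all tested, 4 fell past both thresholds (Pecam1, Kdr, Tie1 and Vwf) and 0 rose, against 0.948% lower and 1.07% higher over all genes tested. Kdr passed in all 8 fits with one tumor left out, Vwf in 4, and Pecam1 and Tie1 in 3 each. Without EtOH 1 and 2, Pecam1 was at -0.70 (adjusted p = 0.0695, edgeR) and Tie1 at -0.74 (adjusted p = 0.135, edgeR). With all 8 tumors, limma-voom passed neither (adjusted p = 0.0522 and 0.0998) and DESeq2 passed both (adjusted p = 0.00017 and 0.00049). Vwf was at -1.03 without EtOH 1 and 2 (adjusted p = 0.0416, edgeR) and at -2.23 without EtOH 3 and 4 (adjusted p = 0.00043, edgeR). The sum of 6 erythroid markers was 5592 and 5830 CPM in EtOH 1 and 2, 3506 and 3454 CPM in EtOH 3 and 4, and 434 to 820 CPM with calcipotriol. The part of the endothelial and erythroid genes in the Esr1 difference was not tested.

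**Figure D1:**
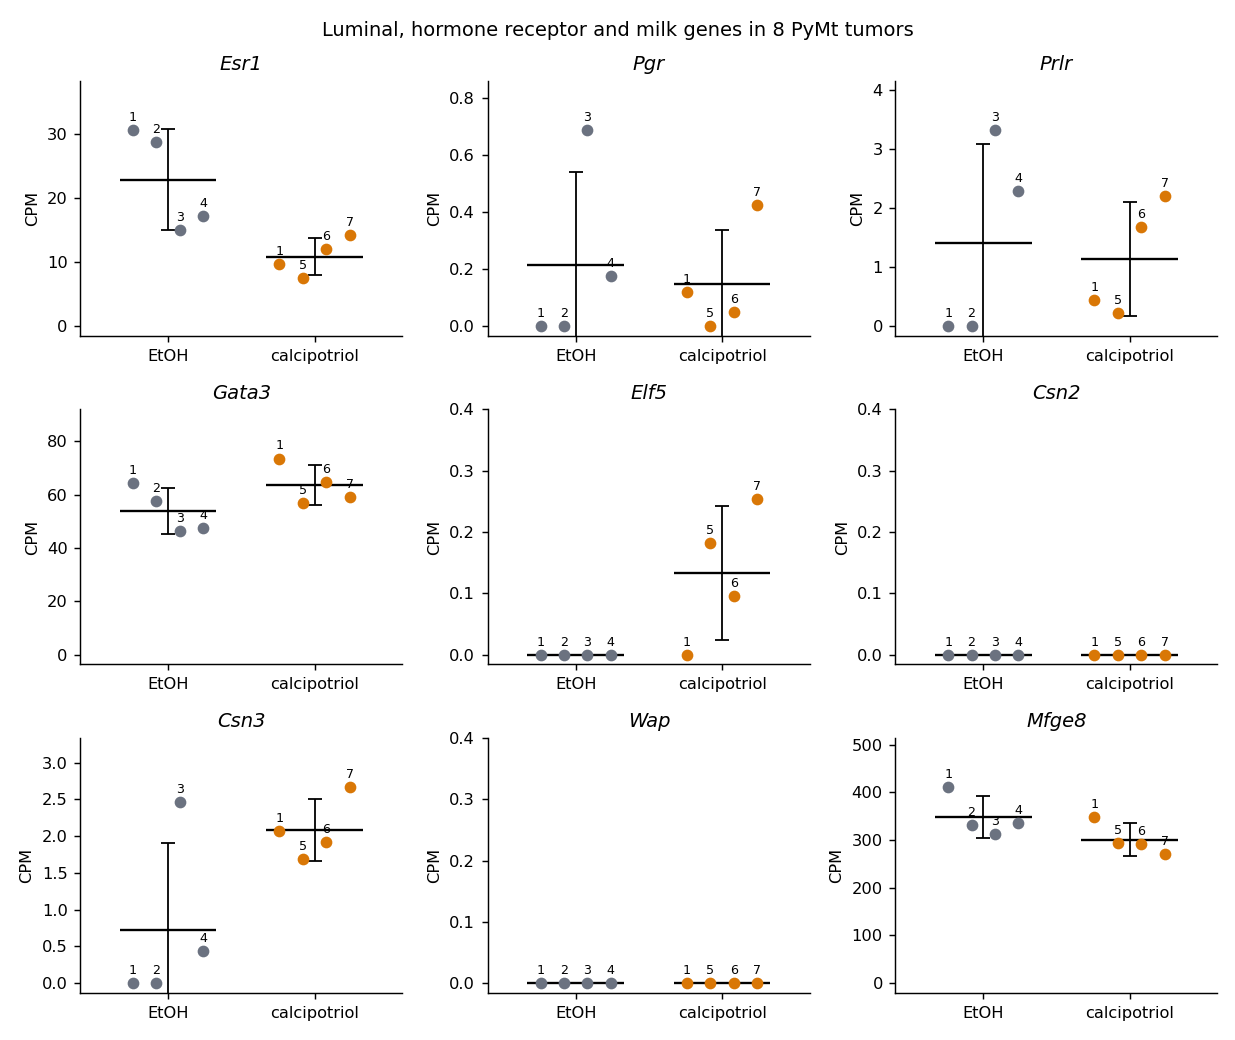
CPM (vertical axis, a scale of its own for each gene) of the 9 genes in each tumor, with EtOH in grey and calcipotriol in orange, replicate numbers above the points, the mean as a horizontal line and the SD as a bar, drawn only down to the lower edge of the axis. The 4 calcipotriol tumors lie at 7.48 to 14.2 CPM for Esr1, all under the EtOH tumors, while EtOH 1 and 2 are at 0 for Prlr, Csn3 and Pgr and all 8 tumors are at 0 for Csn2 and Wap.

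Pgr encodes the progesterone receptor, itself a well-known target of the estrogen receptor, and lies at chr9:8899833-8968611 on the forward strand. It had 0, 0, 17 and 4 counts in the EtOH tumors and 3, 0, 1 and 10 counts in the calcipotriol tumors, or 0.216 ± 0.325 and 0.148 ± 0.190 CPM. Only EtOH 3, EtOH 4 and calcipotriol 7 were above 3 counts, and the groups overlapped. The gene was at or near the limit of detection, so a difference between the groups was not detectable at this depth.

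Prlr encodes the prolactin receptor and lies at chr15:10177238-10349180 on the forward strand. It had 0, 0, 82 and 52 counts in EtOH 1 to 4 and 11, 5, 35 and 52 counts in calcipotriol 1, 5, 6 and 7, or 0, 0, 3.32 and 2.29 CPM against 0.437, 0.228, 1.68 and 2.20 CPM. The spread within each group was wider than the gap between their means, 1.40 ± 1.67 and 1.14 ± 0.957 CPM. The log2 fold change was -0.31 (SE 1.34, 95% confidence interval -3.28 to 2.66, adjusted p = 0.931, edgeR) and the exact permutation p was 0.657, so changes of several fold in either direction were within the interval. The sign was not stable. Leaving out EtOH 3 gave 0.56, leaving out EtOH 4 gave 0.03 and leaving out calcipotriol 5 gave 0.03, and limma-voom gave 1.45 (adjusted p = 0.660). The edgeR adjusted p lay between 0.817 and 0.997 over the 8 fits with one tumor left out. Without EtOH 1 and 2 the log2 fold change was -1.30 (adjusted p = 0.428, edgeR), and without EtOH 3 and 4 no EtOH tumor had a count.

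Gata3 encodes the zinc finger factor that maintains luminal differentiation and is also used by Th2 cells and other lymphocytes. It lies at chr2:9857078-9890034 on the reverse strand and overlaps 4930412O13Rik on the opposite strand and 9230102O04Rik on its own strand, which had 231 and 80 counts over the 8 tumors. Gata3 had 1325, 1186, 1149 and 1076 counts in the EtOH tumors and 1854, 1244, 1351 and 1400 counts in the calcipotriol tumors, or 64.4, 57.7, 46.5 and 47.4 against 73.6, 56.8, 64.9 and 59.3 CPM. Calcipotriol 1 was the highest tumor, and EtOH 1 and 2 fell within the range of the calcipotriol tumors. The means were 54.0 ± 8.58 and 63.6 ± 7.45 CPM, with a log2 fold change of 0.24 (SE 0.15, 95% confidence interval -0.09 to 0.56, adjusted p = 0.422, edgeR, exact permutation p = 0.171). A doubling was outside this interval. The value was 0.44 without EtOH 1 and 2 (adjusted p = 0.147, edgeR) and 0.06 without EtOH 3 and 4 (adjusted p = 0.854, edgeR). Summed over 7 T cell markers, the EtOH tumors held 1.32 to 3.21 CPM, calcipotriol 1 held 13.6 CPM and calcipotriol 5, 6 and 7 held 2.33 to 3.74 CPM. Of the 4 T cell genes that could be tested, 0 passed both thresholds. All 4 had a positive log2 fold change, with a median of 1.51. By staining, the study reported more CD3, CD4 and CD8 T cells in calcipotriol-treated tumors, a count of cells by protein. The part of the T cell markers in the Gata3 level was not tested.

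Elf5 encodes the ETS factor that directs alveolar differentiation downstream of prolactin, and lies at chr2:103411688-103450989 on the forward strand. It had 0 counts in all 4 EtOH tumors and 0, 4, 2 and 6 counts in calcipotriol 1, 5, 6 and 7. The mean with calcipotriol, 0.133 ± 0.110 CPM, was itself within the limit of detection of single tumors. No fold change is given for so few counts.

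Csn2 encodes beta-casein and Wap whey acidic protein, major proteins of mouse milk. Csn2 lies at chr5:87692624-87699630 and Wap at chr11:6635482-6638637, both on the reverse strand, with the promoter windows printed above. Both had 0 counts in each of the 8 tumors, out of 180086966 counts in all, which allows up to 0.120 to 0.152 CPM in a tumor for counting error alone.

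Csn3 encodes kappa-casein, which keeps casein micelles in suspension, and lies at chr5:87925579-87932665 on the forward strand. It had 0, 0, 61 and 10 counts in EtOH 1 to 4 and 52, 37, 40 and 63 counts in calcipotriol 1, 5, 6 and 7, or 0, 0, 2.47 and 0.441 CPM against 2.06, 1.69, 1.92 and 2.67 CPM. The calcipotriol tumors were close together, while EtOH 3 lay among them and the other 3 EtOH tumors lay below them. The means were 0.727 ± 1.18 and 2.09 ± 0.418 CPM, with a log2 fold change of 1.50 (SE 1.19, 95% confidence interval -1.14 to 4.13, adjusted p = 0.549, edgeR, exact permutation p = 0.114). Without EtOH 3 the log2 fold change was 3.75 (edgeR, adjusted p = 0.162), and without EtOH 1 and 2 it was 0.52 (edgeR, adjusted p = 0.736). Csn3 was the only casein gene with counts, since Csn2 and the alpha-casein genes Csn1s1, Csn1s2a and Csn1s2b, read after their values were seen, were at 0 in every tumor.

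The absence of Prlr and Csn3 counts from EtOH 1 and 2 was shared with epithelial and adipocyte genes. The simple-epithelium keratin Krt19 had 0 and 0 counts in EtOH 1 and 2, 149 and 162 counts in EtOH 3 and 4, and 50 to 169 counts with calcipotriol, and Epcam, at 0 and 0 counts in EtOH 1 and 2, had 106 and 65 counts in EtOH 3 and 4. Across the table, 48 genes were at 0 in EtOH 1 and 2 with at least 5 counts in each of the other 6 tumors, of which 44 are protein coding and 2 are Prlr and Csn3. The same count for EtOH 3 and 4 was 47 genes, of which 17 are protein coding. Of 8 adipocyte markers, the adipokine gene Retn had 0 and 0 counts in EtOH 1 and 2, 72 and 61 counts in EtOH 3 and 4, and 5 to 58 counts with calcipotriol. Cfd, the adipocyte protease adipsin, had 4 and 0 counts in EtOH 1 and 2, 433 and 509 counts in EtOH 3 and 4, and 38 to 314 counts with calcipotriol. Adipoq and Cidec, named after their values were seen, were also at 0 in EtOH 1 and 2 and above 0 in EtOH 3 and 4, whereas the sum of the 8 markers was 52.7 to 57.1 CPM in the first pair and 72.0 to 76.5 CPM in the second. Krt8 and Krt18, by contrast, were highest in EtOH 1 and 2. The sum of 6 skeletal muscle markers was 39.6 and 40.0 CPM in EtOH 3 and 4 and 2.14 to 7.78 CPM in the other 6 tumors, with 0 of 6 past both thresholds. The part of the muscle and adipocyte markers in these differences was not tested.

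Mfge8 encodes a secreted glycoprotein of the milk fat globule membrane that also helps macrophages to engulf dying cells, and is made outside the mammary epithelium too. It lies at chr7:79133768-79149060 on the reverse strand. It had 8460, 6816, 7704 and 7630 counts in the EtOH tumors and 8793, 6434, 6065 and 6369 counts in the calcipotriol tumors, the highest of the 9 genes in every tumor. EtOH 1, at 411 CPM, and calcipotriol 1, at 349 CPM, were the highest tumors of their groups, and the others lay at 312 to 336 CPM with EtOH and 270 to 294 CPM with calcipotriol. The means were 348 ± 43.6 and 301 ± 33.8 CPM, and the log2 fold change was -0.21 (SE 0.14, 95% confidence interval -0.51 to 0.09, adjusted p = 0.459, edgeR, exact permutation p = 0.114). It was -0.10 without EtOH 1 and 2 and -0.30 without EtOH 3 and 4 (adjusted p = 0.761 and 0.323, edgeR). The sum of 8 macrophage markers was 2135 to 2563 CPM with EtOH and 957 to 1840 CPM with calcipotriol. Of the 8 genes, 2 fell past both thresholds (Adgre1 and Csf1r), against 0.948% of all genes tested. All 8 had a negative log2 fold change, with a median of -0.92. The groups did not overlap in 5 of the 8, against 12.5% of all genes tested. With one tumor left out, both passed in 1 of the 8 fits only, that without calcipotriol 1, and the adjusted p reached 0.106 for Adgre1 and 0.113 for Csf1r (edgeR). With all 8 tumors, both also passed with DESeq2 (adjusted p = 0.00019 and 3.7e-05) and limma-voom (adjusted p = 0.0192 and 0.0181). By staining for the Adgre1 protein, the study reported significantly more macrophages in calcipotriol-treated tumors. That is a count of cells by protein, a measure unlike the RNA sum given here. The part of the macrophage markers in the Mfge8 level was not tested.

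**Figure D2:**
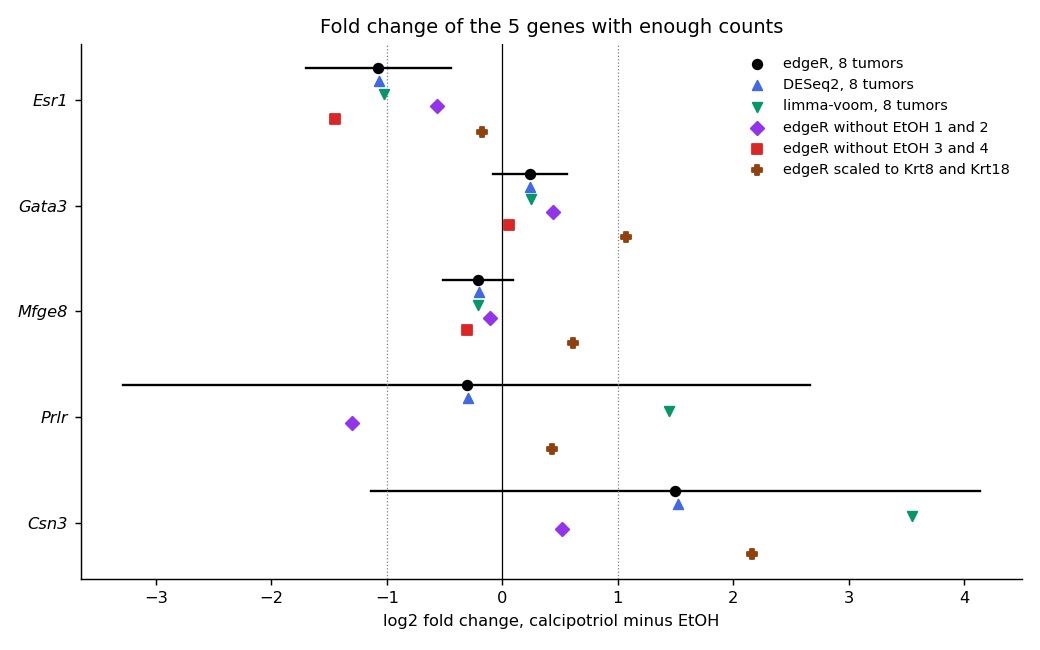
Log2 fold change (horizontal axis, calcipotriol minus EtOH) of the 5 tested genes with edgeR and its 95% confidence interval (black), with DESeq2 and limma-voom, without EtOH 1 and 2, without EtOH 3 and 4, and with libraries scaled to Krt8 and Krt18. Dotted lines mark a log2 fold change of 1 in each direction, and points without EtOH 3 and 4 are left out for Prlr and Csn3, which are then at 0 in the EtOH group. The interval of Esr1 excludes 0 and those of the other genes include it.

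Compared between genes per kilobase of exon, the levels spanned several orders of magnitude. In EtOH tumors the mean was 74.1 ± 9.29 CPM per kilobase for Mfge8, 13.6 ± 2.16 for Gata3 and 1.67 ± 0.580 for Esr1, and the values of these 3 genes did not overlap. Csn3 at 0.175 ± 0.284, Prlr at 0.0914 ± 0.109 and Pgr at 0.0253 ± 0.0381 CPM per kilobase followed, each overlapping the next. In calcipotriol tumors the order of the leading genes was the same, with 64.1 ± 7.20 for Mfge8, 16.0 ± 1.87 for Gata3 and 0.795 ± 0.214 CPM per kilobase for Esr1. Here Esr1 overlapped Csn3, at 0.502 ± 0.101 CPM per kilobase, which in turn lay above Prlr at 0.0741 ± 0.0624 without overlap. Elf5 at 0.0227 ± 0.0187 and Pgr at 0.0173 ± 0.0223 CPM per kilobase overlapped each other.

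**Figure D3:**
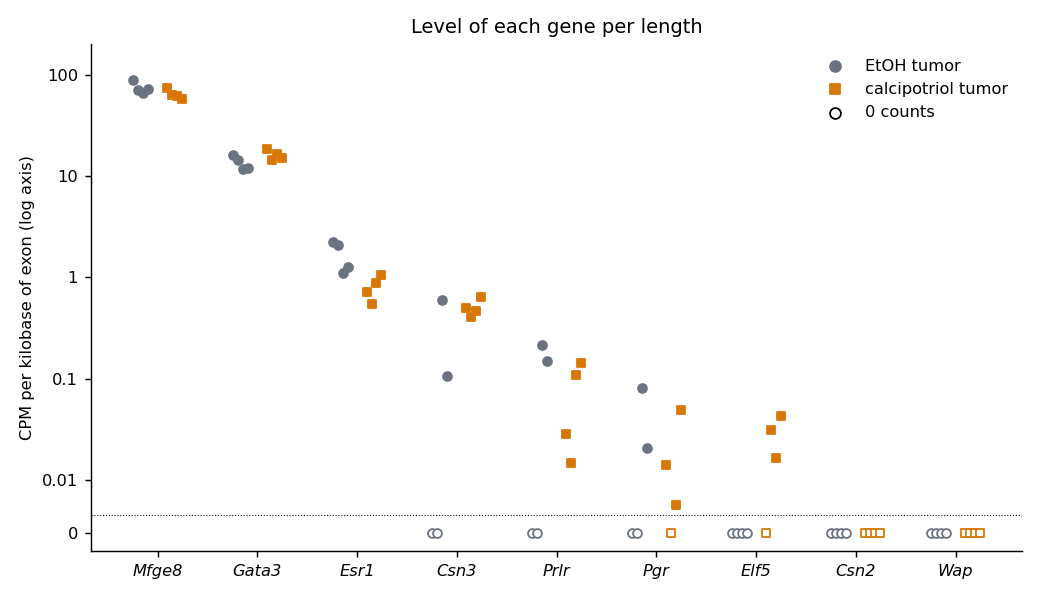
CPM per kilobase of exon (vertical log axis with a separate position for 0, below the dotted line) for each gene and tumor, EtOH in grey circles and calcipotriol in orange squares, open symbols for 0 counts. Mfge8, Gata3 and Esr1 lie in separate bands in the EtOH tumors, whereas Csn2 and Wap are at 0 in all 8 tumors.

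Because these genes are mostly epithelial in the mammary gland, the comparison was repeated with libraries scaled to epithelial genes. Scaling to 7 pan-epithelial genes moved the median log2 fold change of all genes tested from 0.02 to -0.94, and scaling to Krt8 and Krt18 alone, added after the data were seen, moved it to 0.85. The first scaling averaged log2 CPM equally over its genes, so those with few counts weighed as much as Krt8 and Krt18. Cldn7, Esrp1 and Grhl2 had at most 10, 41 and 15 counts in a tumor, and Epcam had 0 in EtOH 1 and 2. Summed counts, EtOH against calcipotriol, were 171 and 998 for Epcam, 3 and 81 for Esrp1, 0 and 32 for Grhl2, and 3 and 16 for Cldn7. Krt8 and Krt18 alone moved the median up, so by construction the downward shift came from the other pan-epithelial genes. The share of each gene in it was not computed. Krt8 was at 592 ± 67.3 CPM with EtOH and 368 ± 108 CPM with calcipotriol (log2 fold change -0.69, adjusted p = 0.0966, edgeR), and Krt18 at 557 ± 90.3 and 293 ± 39.9 CPM (-0.93, adjusted p = 0.0162, edgeR, under the fold threshold). Relative to the median of all genes, Esr1 was at -1.09 on the log2 scale with the TMM library sizes, -1.36 with the pan-epithelial scaling and -1.03 with Krt8 and Krt18. Gata3 was at 0.22, 0.17 and 0.22, and Mfge8 at -0.23, -0.21 and -0.24 relative to that median. Taking out that median undoes most of the scaling by construction, so the closeness of these values is no test of epithelial content. The absolute log2 fold change moved with the scaling, to -2.31 (adjusted p = 0.00536, edgeR) or -0.18 (adjusted p = 0.597, edgeR) for Esr1, and to -0.77 (adjusted p = 0.278, edgeR) or 1.07 (adjusted p = 0.00191, edgeR) for Gata3.

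**Figure D4:**
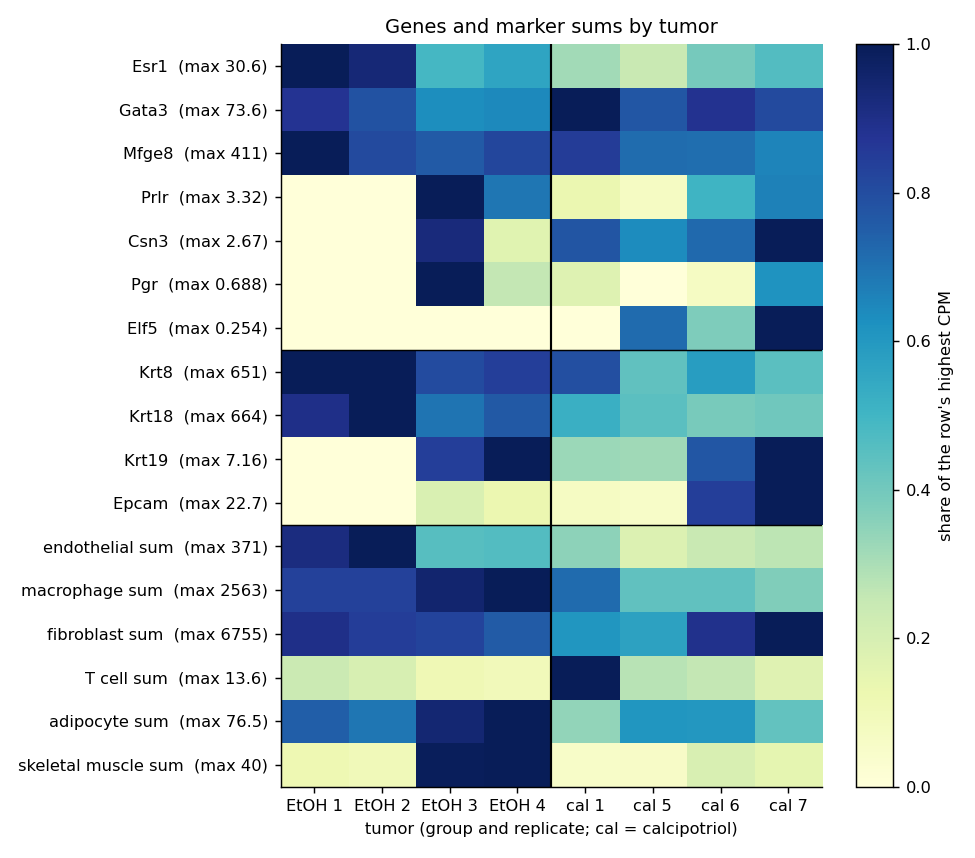
Each tumor (columns) for 7 of the genes, 4 epithelial genes and 6 sums of cell type markers (rows), colored by the share of the row's highest CPM, which is written beside its name. Esr1 and the endothelial sum are highest in EtOH 1 and 2, where Prlr, Csn3, Pgr, Krt19 and Epcam are at 0.

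The other genes of these pathways were read from 5 lists, beside 1.07% of all genes tested that rose and 0.948% that fell past both thresholds. Of 15 further milk protein and milk secretion genes, 5 could be tested, 0 rose and 0 fell past both thresholds, and 6 were at 0 in all tumors. Their median log2 fold change was 0.78, against 0.02 over all genes tested, and 0.41 without EtOH 1 and 2. In each of the fits without EtOH 1, without calcipotriol 1, without calcipotriol 5 and without EtOH 1 and 2 together, 1 gene rose. Xdh, xanthine oxidoreductase of the milk fat globule, was at 73.1 ± 18.7 CPM with EtOH and 145 ± 20.7 CPM with calcipotriol, with no overlap between the groups, and its log2 fold change of 0.99 (SE 0.19, adjusted p = 0.0262, edgeR) was just under the fold threshold. Plin2, which coats lipid droplets, was at 212 ± 23.0 and 234 ± 32.8 CPM (log2 fold change 0.15), and Rab27a, a GTPase of secretory vesicles, at 5.43 ± 1.36 and 2.37 ± 0.571 CPM (log2 fold change -1.20, adjusted p = 0.0878, edgeR).

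Of 20 luminal lineage genes, 15 could be tested and 1 rose past both thresholds, with 0 lower and a median log2 fold change of 0.45. The median lay between 0.06 and 0.90 with one tumor left out, and 2 genes fell in the fit without calcipotriol 1 and 1 in that without EtOH 3. It was -0.14 without EtOH 1 and 2, with 1 gene higher and 0 lower, and 2.42 without EtOH 3 and 4, with 3 higher and 2 lower. The gene that rose was Cldn3, a tight junction claudin of luminal cells, with 0.776, 0.243, 0.526 and 0.176 CPM in EtOH 1 to 4 and 7.94, 7.26, 7.25 and 4.02 CPM in calcipotriol 1, 5, 6 and 7. Its log2 fold change was 3.93 (SE 0.52, adjusted p = 0.00654, edgeR), and it passed in all 8 fits with one tumor left out and without either pair of EtOH tumors. Tbx3, a T-box factor of hormone-sensing luminal cells, was at 29.7 ± 5.02 and 20.5 ± 3.02 CPM (log2 fold change -0.54, adjusted p = 0.129, edgeR), and Cdh1, E-cadherin, at 10.6 ± 5.96 and 14.5 ± 6.35 CPM (0.45, adjusted p = 0.634, edgeR). Krt8 and Krt18, given above, were the most abundant genes of this list.

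Of 15 genes of the estrogen and progesterone response, 11 could be tested and 1 rose past both thresholds, with 0 lower and a median log2 fold change of 0.89. The median was 0.35 without calcipotriol 1, with 2 genes higher and 1 lower, 1.52 without EtOH 4, and 1.75 without EtOH 3 and 4, with 1 higher and 1 lower. The gene that rose was Igfbp4, a binding protein that sequesters IGF, at 165, 167, 269 and 315 CPM in EtOH 1 to 4 and 1986, 2040, 765 and 689 CPM in calcipotriol 1, 5, 6 and 7, of which 1 and 5 were the high tumors. Its log2 fold change was 2.58 (SE 0.40, adjusted p = 0.0115, edgeR), and it passed in all 8 fits with one tumor left out but not without EtOH 1 and 2 (log2 fold change 2.23, adjusted p = 0.0721, edgeR). The epidermal growth factor family ligand Areg, which relays estrogen signals in the duct, was at 101 ± 47.1 and 120 ± 9.25 CPM (log2 fold change 0.25), Xbp1, a factor of the secretory stress response, at 128 ± 3.89 and 110 ± 14.3 CPM (-0.22) and Ccnd1, cyclin D1, at 618 ± 269.9 and 539.5 ± 94.7 CPM (-0.20). None of these 3 passed the test, with edgeR adjusted p from 0.364 to 0.769. Of the 11 tested genes, 8 had a positive and 3 a negative log2 fold change. Igfbp5, named after its values were seen, was at 95.9, 101, 37.5 and 36.0 CPM in EtOH 1 to 4. With calcipotriol 1, 5, 6 and 7 it was at 31.7, 6.34, 7.78 and 9.70 CPM, without overlap (log2 fold change -2.28, adjusted p = 0.0574, edgeR).

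Of the 13 other hormone and growth factor receptors of the gland that are reported here, 8 could be tested, 0 rose and 0 fell past both thresholds, with a median log2 fold change of -0.07, which lay between -0.18 (without EtOH 4) and 0.18 (without calcipotriol 1) with one tumor left out. The glucocorticoid receptor gene Nr3c1 was at 85.3 ± 14.9 and 70.6 ± 9.65 CPM (log2 fold change -0.27) and the growth hormone receptor gene Ghr at 89.1 ± 24.8 and 116 ± 30.7 CPM (0.38). Igf1r, the IGF receptor (log2 fold change 0.13), and Thra, a thyroid hormone receptor (-0.44), also did not pass the test, with edgeR adjusted p of 0.756 and 0.271.

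Of 12 prolactin, JAK2 and STAT5 signaling genes, 11 could be tested, 0 rose and 0 fell past both thresholds, and the median log2 fold change was 0.00. Prolactin itself (Prl), a pituitary hormone, was at 0 counts in all tumors. The transcription factor genes Stat5a and Stat5b, read after their values were seen because of the STAT5 motif above, were at 26.5 ± 4.43 and 38.8 ± 2.59 CPM with EtOH and at 25.3 ± 4.93 and 36.4 ± 5.28 CPM with calcipotriol. Their log2 fold changes were -0.07 and -0.09, and the groups overlapped in both. Cish, a STAT5 target that restrains cytokine receptors, also read after its values were seen, was at 9.57, 6.52, 16.0 and 19.2 CPM with EtOH and 22.6, 35.3, 26.2 and 28.4 CPM with calcipotriol, without overlap, at a log2 fold change of 1.13 (SE 0.31, adjusted p = 0.0822, edgeR). Jak2, Socs1, Socs2 and Id2 of the same list, read likewise, overlapped between the groups. Their log2 fold changes were 0.61, 0.43, 0.26 and -0.37 (adjusted p = 0.0822, 0.681, 0.652 and 0.322, edgeR). Socs3, Akt1, Cebpb and Nfib, the most abundant genes of the list, were between -0.46 and 0.52 on the log2 fold change scale with edgeR adjusted p from 0.0821 to 0.997.

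Under the pan-epithelial scaling, which moved the median of all genes to -0.94, the list medians were -0.27 for the milk genes, -0.30 for the luminal genes, 0.19 for the estrogen and progesterone response, -1.08 for the other receptors and -0.89 for prolactin signaling. Under that to Krt8 and Krt18, which moved the median of all genes to 0.85, they were 1.63, 1.14, 1.55, 0.80 and 0.80 in the same order, so every list but that of the estrogen and progesterone response changed sign between the scalings. Past both thresholds, 2 luminal genes and 1 estrogen and progesterone response gene were lower under the pan-epithelial scaling, as were 599 of all 14458 genes tested. Under the Krt8 and Krt18 scaling 3 of 5 tested milk, 5 of 15 luminal and 8 of 11 estrogen and progesterone response genes were higher. So were 3 of 8 other receptor and 4 of 11 prolactin signaling genes, and 1 estrogen and progesterone response gene was lower. Over all 14458 genes tested, 3888 were higher and 63 lower under that scaling, which raised all genes by construction. Cldn3 and Igfbp4 passed under both scalings.

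**Figure D5:**
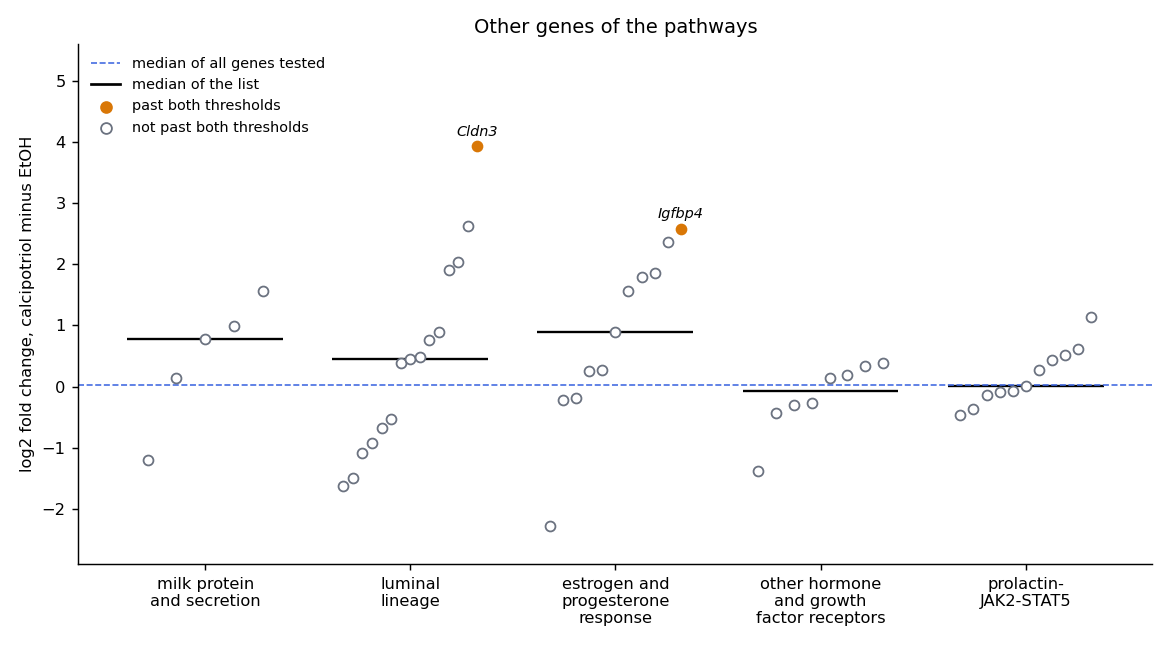
Log2 fold change (vertical axis, calcipotriol minus EtOH, edgeR) of the tested genes of each pathway list (columns), filled where past both thresholds, with the list's median as a line and the median of all genes tested, 0.02, dashed. Cldn3 and Igfbp4 are the 2 plotted genes past both thresholds.

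As a description of likeness, log2 CPM was compared between each tested gene and 13049 protein-coding genes over the 8 tumors after the mean of each group was taken out, and genes share library depth in such a comparison. Closest to Esr1 were Zc3h7a (Pearson's r = 0.984) and Irx2 (r = 0.983), and closest to Gata3 were Cd2 (r = 0.983), a T cell surface gene, and Smug1 (r = 0.980). Prlr was closest to Plk1 (r = 0.991), a mitotic kinase, and Rfc2 (r = 0.990), a replication factor subunit. Csn3 was closest to Setd6 (r = 0.988) and Gtf3c5 (r = 0.978), and Mfge8 to Sema3b (r = 0.975) and Sdc4 (r = 0.969). The highest of 13049 correlations over 8 tumors are high by selection, and the values that chance gives were not computed. A shared cell type or function was not tested.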

How the data were processed

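Total RNA of 8 tumors, 4 per group by the treatment labels, was sequenced. The authors deposited expected counts per gene, 1 column per tumor and unscaled. The submitters' processing notes name GRCm38, STAR 2.5.3, RSEM 1.3.1 and DESeq2 1.24.0, whereas the study's methods name limma. RSEM shares reads between similar genes by estimate, and 4.2% to 6.22% of a tumor's values were not whole. Values were rounded because the planned tests take whole counts. Identifiers were matched to GENCODE M21 (52133 of 55414 matched, the other 3281 kept in the tests).

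The comparison used edgeR 4.0.16 in R 4.3.3 (filterByExpr, TMM, glmQLFit, glmQLFTest). SEs were taken from the F statistic, CPM used TMM library sizes, log2 CPM a prior count of 2, and levels between genes the union of exons. Counting limits cover counting error only, because PCR reads are not independent molecules. Replicates differed by more than counting error in every pair. The study's methods give 4 biological replicates per group and do not state how samples were drawn within an animal. The p-values set the group difference against the spread between these samples.

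The 9 genes, the 5 pathway lists and the 10 marker lists were chosen with earlier results of these data known. A gene of the list of other receptors is not reported here and enters none of that list's values. Named genes are the 9 genes, list genes past both thresholds, up to 4 genes per list with the highest mean count, and the 2 genes most alike each tested gene. For the marker lists whose calls are not given above, 0 of 8 fibroblast and 0 of 3 tested keratinocyte genes passed both thresholds. Past both thresholds, 1 of 6 tested adipocyte genes fell (Fabp4), 5 of 6 erythroid genes fell, and of 8 tested basal genes 2 rose (Krt14 and Trp63) and 1 fell (Mylk). Over all genes tested, 1.07% were higher and 0.948% lower past both thresholds. With one tumor left out, Krt14 passed in 1 of 8 fits and Trp63 in 2. With all 8 tumors, limma-voom passed neither (adjusted p = 0.446 and 0.0510) and DESeq2 passed both (adjusted p = 0.00196 and 8.7e-05). Alternatives were DESeq2 1.42.0 and its size factors, limma-voom (limma 3.58.1), other count filters, unrounded counts, 2 epithelial scalings, no fold minimum, a prior count of 0.5, transcript length and tumors left out. Scripts were tested on simulated data.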

Additional observations from a re-analysis of the deposited data

How the results depend on the processing

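No paired analysis was possible because the groups share only replicate number 1. With one tumor left out, 0 of the tested genes of the set passed both thresholds in each of the 8 fits, 110 to 642 of all genes did (642 without calcipotriol 1 and 110 without calcipotriol 6), and Prlr ranged from -0.84 to 0.56 in log2 fold change. Among the genes of the set, 0 passed with all 8 tumors, 1 passed with no filter on low counts (458 of all genes; Esr1 at -1.07), 1 with DESeq2 (644 of all genes; Esr1 at -1.07), 1 with the pan-epithelial scaling (677 of all genes, 78 higher and 599 lower against 155 and 137; Esr1 at -2.31) and 1 with the Krt8 and Krt18 scaling (3951 of all genes, 3888 higher and 63 lower; Gata3 at 1.07). The sign turned for Gata3 under the pan-epithelial scaling (-0.77, exact permutation p = 0.171), for Mfge8 under the Krt8 and Krt18 scaling (0.61, adjusted p = 0.0149, edgeR) and for Prlr under that scaling (0.43) and with limma-voom (1.45), the scalings having moved all genes by construction. The cause of the limma-voom change was not tested. DESeq2 gave neither a p nor an adjusted p for Csn3.

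Leaving out pairs of EtOH tumors was added after the data were seen and leaves 2 control tumors. Without EtOH 1 and 2, 177 of all genes passed. Without EtOH 3 and 4, 605 passed, 2 of them of the set (Esr1 at -1.45 and Csn3 at 8.53), and Prlr was at 7.66, where the EtOH counts of Csn3 and Prlr are all 0 and the fitted value depends on the prior count. DESeq2 size factors, a minimum mean of 10 counts and unrounded counts changed no call of the set. Depth limits Csn2 and Wap, at 0 counts in all 8 tumors, and Pgr and Elf5, at 3 counts or fewer in most tumors.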

Other observations

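Muc1, a mucin of the luminal surface, named after its values were seen, had 17, 19, 27 and 19 counts in EtOH 1 to 4 and 18, 105, 65 and 54 counts in calcipotriol 1, 5, 6 and 7, so calcipotriol 1 lay among the EtOH tumors. Kit, a receptor of luminal progenitors and of mast cells, also named after its values were seen, had 186, 168, 86 and 115 counts in the EtOH tumors and 93, 49, 24 and 29 counts in the calcipotriol tumors, with EtOH 1 and 2 the highest tumors, as for Esr1. The groups overlapped (log2 fold change -1.63, adjusted p = 0.0968, edgeR). Aldh1a3 of the same luminal list, also named after its values were seen, went the other way. It had 65, 73, 160 and 138 counts with EtOH and 1100, 249, 186 and 188 with calcipotriol, without overlap in CPM (log2 fold change 1.90, adjusted p = 0.0966, edgeR). Erbb4, a receptor that acts through STAT5 in the lactating gland, was at 0 counts in all 8 tumors.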
